A study of Mus musculus with 10 samples.

Results

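Gpc1, Lrrn4, Susd4, Mr1, Fmo2, Steap2, Gspt2, Morc4 and Ttc39a are 9 candidate genes, out of 41388 listed and 13444 tested, whose liver mRNA differed between fasted NAMPT LKO and fasted WT mice. They were picked after low p-values had been seen in that very comparison, so the differences that chose them are given here as a description and not as findings. All 9 passed the filter on low counts (a CPM, the count scaled by the library total, above 1 in at least 1 library), which a gene could pass through the group where it was high. The RNA-seq libraries were made from whole liver, 1 library per mouse. There were 5 NAMPT LKO Fasting, 3 WT Fasting and 2 WT Refed libraries. Mice are numbered as in the labels, except for WT Refed, where the labels give no number.

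All mice were C57B/6J littermates that the labels give as 12 weeks old, and all carried loxP-flanked Nampt alleles (NAMPT fl/fl). NAMPT LKO mice also carried Albumin-cre, which is driven by a hepatocyte promoter, and WT mice carried no Cre, so the presence of Cre and the loss of Nampt cannot be told apart. By the labels, both Fasting groups went 24 h without food on aspen bedding, and WT Refed mice went 22 h without food and were then fed for 2 h. The study's text describes a shorter fast and randomly fed controls, so the length of the fast is uncertain. No refed NAMPT LKO library is part of the data analysed here. In bulk liver RNA, fewer cells of a type and less RNA per cell cannot be told apart.

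NAMPT is the rate-limiting enzyme that recycles nicotinamide into NAD in hepatocytes, and NAD and its phosphorylated form NADPH carry electrons for most redox reactions of the liver. The 9 genes belong to no single pathway. Gpc1, Lrrn4, Susd4 and Mr1 encode proteins of the cell surface, Fmo2 and Steap2 encode oxidoreductases that draw electrons from NADPH, Gspt2 and Morc4 encode nucleotide-hydrolysing proteins of translation and of the nucleus, and Ttc39a encodes a tetratricopeptide repeat protein whose function is little known.

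Total counts ranged from 30603080 to 43434139 across the 10 libraries. Levels are given as CPM after scaling between libraries by the trimmed mean of M values (TMM CPM). Nampt, the targeted gene, was at 12.0, 13.8, 11.6, 12.4 and 15.1 TMM CPM in the NAMPT LKO Fasting libraries, at 62.1, 72.3 and 139 in WT Fasting and at 76.9 and 66.8 in WT Refed. The labels of every library therefore matched the level of the targeted gene. Hepatocyte markers summed to 59291 to 105936 TMM CPM in all 10 libraries. WT Fasting mouse 3 stood apart in Tap1, a peptide transporter of antigen presentation, with 167 TMM CPM against 14.7 to 26.3 in the other libraries, and NAMPT LKO Fasting mouse 5 had 21.1% of its counts on mitochondrial genes against 7.42% to 12.9% in the others. For some of the genes the fold change is also given without one of these libraries.

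The genes were chosen by their low p-values between NAMPT LKO Fasting and WT Fasting. Between NAMPT LKO Fasting and WT Fasting, the 9 genes held ranks 4 to 28 by unadjusted p among 13444 genes in edgeR's quasi-likelihood test, and the adjustment gave 0.280 (Gpc1 and Susd4) to 0.761 (Lrrn4). That test called 1 gene, Nampt (0.00744% of genes tested), and no member, while all 9 members had an unadjusted p under 0.05, as did 6.03% of genes tested. The 9 genes were called by edgeR's exact test, with adjusted p-values of 0.000311 to 0.0410, and by DESeq2, with 0.000205 to 0.0437. Each of these tools called 24 genes (0.179% and 0.183% of genes tested), and limma's voomWithQualityWeights called 1 gene and no member. Up to the last member's rank, 19 genes were no members. They include Sult5a1 (rank 2, log2 fold change -2.06), Spp1 (rank 3, 1.64), Bicc1 (rank 8, 1.29) and Psmc3ip (rank 10, -4.12). The last member inside, Lrrn4, had an unadjusted p of 0.00172 in the quasi-likelihood test, and the first gene after it, Antxr1, had 0.00181.

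In that comparison 7 members lay higher in every NAMPT LKO Fasting library than in any WT Fasting library, and Gpc1 and Susd4 lay lower in every one. Such a gap was seen in 1.87% of genes tested for higher and 2.12% for lower, 3.99% in all, and nothing is read from the members' count because the same contrast chose them. The median log2 fold change of the members was 1.03, against 0.00 over all 13444 genes. The absolute log2 fold changes ran from 0.86 (Steap2) to 3.30 (Gspt2).

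**Figure D1:**
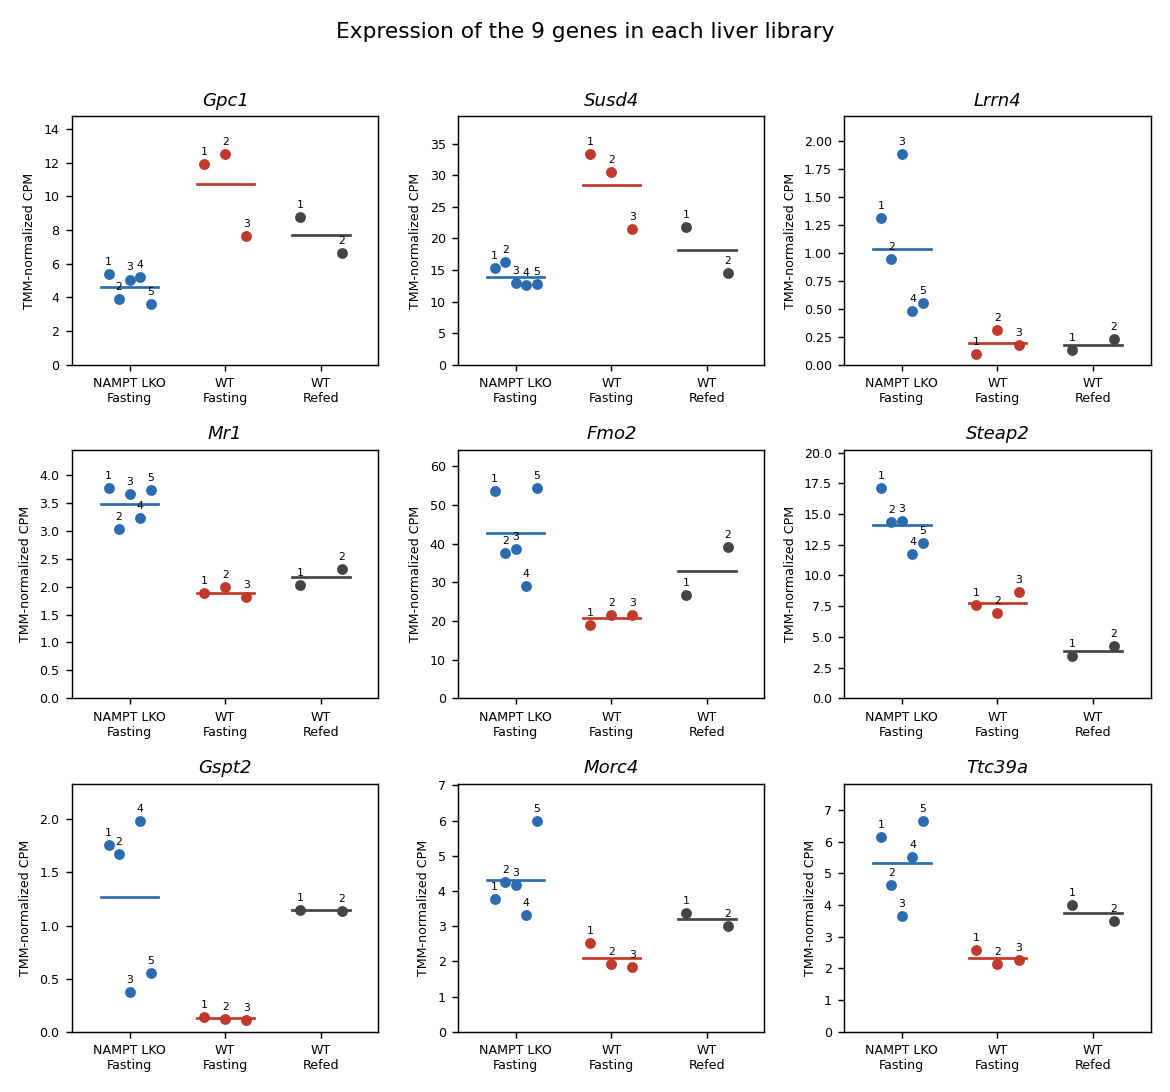
TMM-normalized CPM (linear axis from 0) of each of the 9 genes in the 10 libraries, with points numbered by mouse and horizontal lines at the group mean. Gpc1 and Susd4 have their lowest mean in NAMPT LKO Fasting, Steap2 steps down from NAMPT LKO Fasting to WT Fasting to WT Refed, and Gspt2 sits between 0.112 and 0.142 in WT Fasting alone.

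Of the cell surface genes, Gpc1 encodes glypican-1, a heparan sulfate proteoglycan anchored to the outer membrane that binds growth factors. It is annotated on the plus strand of chromosome 1 (GRCm38, 92831645 to 92860779), and its reads were counted over exons, as for every gene below. Gpc1 was at 5.37, 3.92, 5.06, 5.22 and 3.58 TMM CPM in NAMPT LKO Fasting livers, at 11.9, 12.5 and 7.66 in WT Fasting livers and at 8.77 and 6.64 in WT Refed livers. The order of the means was WT Fasting, WT Refed, NAMPT LKO Fasting. WT Fasting and WT Refed overlapped, because WT Fasting mouse 3 lay below WT Refed mouse 1, and every NAMPT LKO Fasting library lay below both other groups. The fitted log2 fold change was -1.21 (SE 0.20) between NAMPT LKO Fasting and WT Fasting, and -1.39 without WT Fasting mouse 3. The smallest difference in the fits that left out 1 library was -1.08, without WT Fasting mouse 2. The exons of Gpc1 share 977 bases with Ankmy1 on the opposite strand, and whether the authors' counting used strand is not given in the sources used here. Ankmy1 was at 0.00 to 0.376 TMM CPM in the 10 libraries.

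Susd4 encodes a membrane protein with sushi domains that restrains complement activation. The gene is on the plus strand of chromosome 1 (182763860 to 182896598). Its level was 15.3, 16.2, 12.9, 12.5 and 12.7 TMM CPM in NAMPT LKO Fasting livers, 33.3, 30.5 and 21.5 in WT Fasting livers, and 21.8 and 14.5 in WT Refed livers. Susd4 shared the order of Gpc1, and again WT Fasting mouse 3 was the lowest of its group and overlapped WT Refed mouse 1. WT Refed mouse 2 fell inside the NAMPT LKO Fasting range. The log2 fold change between NAMPT LKO Fasting and WT Fasting was -1.03 (SE 0.17), and -1.18 without WT Fasting mouse 3. The smallest difference in the fits that left out 1 library was -0.89, without WT Fasting mouse 1. Over the 10 libraries, log2 levels of Susd4 and Gpc1 correlated with a Pearson r of 0.904, which places Gpc1 second among the 12277 genes compared with Susd4. All 10 points include the 8 that chose both genes.

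Mr1 encodes a class I-like antigen-presenting molecule that displays vitamin B2 metabolites to mucosal-associated invariant T cells. It lies on the minus strand of chromosome 1 (155127878 to 155146783). Mr1 was at 3.77, 3.03, 3.67, 3.24 and 3.73 TMM CPM in NAMPT LKO Fasting livers, the tightest of the 9 genes in that group, and at 1.89, 1.99 and 1.81 in WT Fasting livers. In WT Refed livers it was at 2.03 and 2.32. The 5 NAMPT LKO Fasting libraries lay above all others, and the WT Fasting and WT Refed libraries did not overlap but were close. The difference was 0.88 on the log2 scale (SE 0.17) between NAMPT LKO Fasting and WT Fasting. The 250 bases before the annotated start of Mr1 (RefSeq, GRCm38.p6, minus strand, chr1:155146815-155147064) had a GC content of 39.6%, against a median of 52.4% over 32851 promoter windows, and held no CpG.

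Lrrn4 encodes a membrane protein with leucine-rich repeats and is known as a marker of mesothelium, the cell layer that covers the liver. Its position is the minus strand of chromosome 2 (132868305 to 132880891). Lrrn4 had few reads, with 41, 30, 80, 18 and 19 in NAMPT LKO Fasting libraries, 4, 10 and 8 in WT Fasting and 6 and 10 in WT Refed. In TMM CPM these were 1.31, 0.948, 1.88, 0.482 and 0.554, against 0.0945, 0.306 and 0.179, and 0.133 and 0.227. Every NAMPT LKO Fasting library lay above the 5 WT libraries, but the highest and lowest NAMPT LKO Fasting mice, 3 and 4, were further apart than mouse 4 was from the highest WT mouse. Between NAMPT LKO Fasting and WT Fasting the log2 fold change was 2.44 (SE 0.59), with a range of 2.10 to 2.89 when each library was left out.

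Of the oxidoreductases, Fmo2 encodes a flavin-containing monooxygenase that oxygenates sulfur and nitrogen compounds with NADPH. It lies on the minus strand of chromosome 1 (162874317 to 162898726). Fmo2 was at 53.6, 37.4, 38.6, 29.0 and 54.4 TMM CPM in NAMPT LKO Fasting livers, at 19.0, 21.5 and 21.6 in WT Fasting livers and at 26.7 and 39.0 in WT Refed livers. WT Fasting was the lowest group and overlapped neither of the others. Both WT Refed values lay within or below the NAMPT LKO Fasting range, so those groups overlapped. The log2 fold change between NAMPT LKO Fasting and WT Fasting was 1.04 (SE 0.21), and 0.94 without NAMPT LKO Fasting mouse 5, with a range of 0.94 to 1.15 over the fits that left out 1 library.

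Steap2 encodes a metalloreductase of endosomal and plasma membranes that reduces iron and copper with NADPH. It lies on the minus strand of chromosome 5 (5664831 to 5694578). Its level was 17.1, 14.3, 14.5, 11.8 and 12.6 TMM CPM in NAMPT LKO Fasting livers, 7.60, 6.91 and 8.67 in WT Fasting livers and 3.42 and 4.27 in WT Refed livers. No library of one group overlapped another group, in the order NAMPT LKO Fasting, WT Fasting, WT Refed. The log2 fold change was 0.86 (SE 0.15) between NAMPT LKO Fasting and WT Fasting, and 0.96 without WT Fasting mouse 3. The smallest difference in the fits that left out 1 library was 0.78, without NAMPT LKO Fasting mouse 1. Steap2 was the single member whose WT Fasting libraries were all above WT Refed, while its NAMPT LKO Fasting libraries were higher still.

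The 250 bases before the RefSeq start sites of these 2 oxidoreductase genes and of Mr1 are shown. Steap2 and Mr1 differed from WT Refed as well, and Fmo2 shares the NADPH use of Steap2. Lrrn4 was also called against WT Refed and had a window (GC content 59.2%), which held no motif match and is not printed. The printed windows were read on the minus strand of GRCm38.p6, from chr5:5694569-5694818 (Steap2), chr1:162898759-162899008 (Fmo2) and chr1:155146815-155147064 (Mr1), and capitals mark motif matches.
Steap2: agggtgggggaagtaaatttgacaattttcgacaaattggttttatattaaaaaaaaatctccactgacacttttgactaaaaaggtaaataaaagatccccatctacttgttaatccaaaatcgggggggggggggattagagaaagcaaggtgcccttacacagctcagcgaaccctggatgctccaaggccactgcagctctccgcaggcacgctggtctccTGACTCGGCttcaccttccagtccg
Fmo2: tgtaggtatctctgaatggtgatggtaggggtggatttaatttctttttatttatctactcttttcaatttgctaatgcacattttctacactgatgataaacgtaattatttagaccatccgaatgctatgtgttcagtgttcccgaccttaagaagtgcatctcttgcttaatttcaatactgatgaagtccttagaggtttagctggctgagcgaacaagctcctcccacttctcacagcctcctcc
Mr1: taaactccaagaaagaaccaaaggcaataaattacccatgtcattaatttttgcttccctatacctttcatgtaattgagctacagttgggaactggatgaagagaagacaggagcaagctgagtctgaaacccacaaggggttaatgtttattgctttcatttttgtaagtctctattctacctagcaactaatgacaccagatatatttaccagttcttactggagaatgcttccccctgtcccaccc
Searched were 4 motifs on both strands, namely the forkhead core GTAAACA, the cyclic AMP response element TGACGTCA, the E-box CACGTG and the antioxidant response element core TGACNNNGC. The last and the cyclic AMP element both begin with TGAC. Of 7 members with a window in the table, 1 held any of them, Steap2, with an antioxidant response element core that starts 25 bases before the start site. That core is found in 10.2% of the 32851 windows of this length, GTAAACA in 3.17%, TGACGTCA in 1.55% and CACGTG in 6.02%. A match is a run of letters and not evidence of binding. Gpc1 and Gspt2 had no window in the table. The windows of Ttc39a and Susd4 belong to start sites 9024 and 356 bases away from the annotated gene starts.

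Of the remaining genes, Gspt2 encodes eRF3b, a GTPase that helps release the finished protein at stop codons. It lies on the plus strand of the X chromosome (94636069 to 94643244). Gspt2 had 55, 53, 16, 74 and 19 reads in NAMPT LKO Fasting libraries, 6, 4 and 5 in WT Fasting and 52 and 50 in WT Refed. In TMM CPM these were 1.76, 1.67, 0.376, 1.98 and 0.554, against 0.142, 0.122 and 0.112, and 1.15 and 1.14. WT Fasting was the low group, below both others in every library. Within NAMPT LKO Fasting, mice 1, 2 and 4 lay above WT Refed and mice 3 and 5 lay below it, with no library between 0.554 and 1.67. The log2 fold change between NAMPT LKO Fasting and WT Fasting was 3.30 (SE 0.64), and it rests on 4 to 6 reads in each WT Fasting library, whose 95% Poisson intervals together ran from 1.09 to 13.1 reads and cover counting error only.

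Gspt2 has a paralog of similar coding sequence, Gspt1, at 81.6 to 123 TMM CPM, so it was checked whether Gspt1 reads could be counted as Gspt2. In the GENCODE transcripts, none of the 3778 different stretches of 50 bases in Gspt2, the read length given in the study's methods, was found in a transcript of another gene. Over the coding sequence of Gspt2, 1847 windows of that length differed from the closest Gspt1 window by a median of 7 bases and by at least 1. The pair of windows with the fewest differences is printed with the differing base in capitals, from coding bases 1464 to 1513 of Gspt2 and 1473 to 1522 of Gspt1.
Gspt2: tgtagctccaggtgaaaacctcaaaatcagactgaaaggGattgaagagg
Gspt1: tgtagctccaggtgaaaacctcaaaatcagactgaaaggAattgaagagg
Reads with sequencing errors were not tested. Gspt1 was at 81.6, 93.0, 86.7, 84.7 and 115 TMM CPM in NAMPT LKO Fasting libraries and at 88.1, 87.2 and 89.3 in WT Fasting libraries. In WT Refed, where Gspt2 also lay above WT Fasting, Gspt1 was at 117 and 123, and its log2 fold change between WT Fasting and WT Refed was -0.45, which was not called by the quasi-likelihood test.

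**Figure D2:**
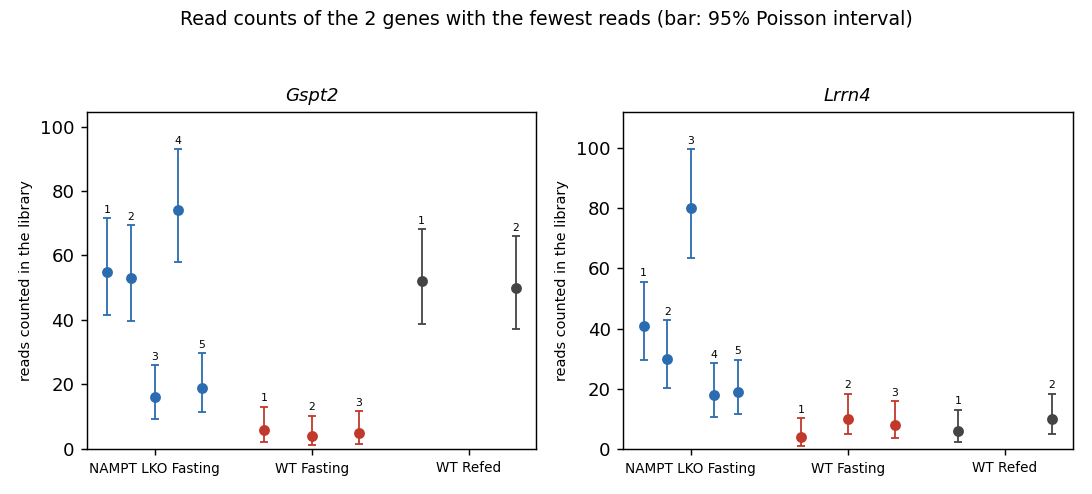
Reads counted for Gspt2 and Lrrn4 in each library, with 95% Poisson intervals as bars and points numbered by mouse. Gspt2 has 4 to 6 reads in WT Fasting libraries and 50 and 52 in WT Refed, and Lrrn4 has 18 to 80 reads in NAMPT LKO Fasting libraries and at most 10 in any WT library.

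Morc4 encodes a nuclear ATPase of the MORC family with a zinc finger that binds modified histones. It lies on the minus strand of the X chromosome (139821632 to 139871677). Morc4 was at 3.77, 4.27, 4.16, 3.32 and 5.97 TMM CPM in NAMPT LKO Fasting livers, at 2.53, 1.93 and 1.83 in WT Fasting livers and at 3.38 and 3.00 in WT Refed livers. NAMPT LKO Fasting mouse 5 was the highest, and mouse 4 lay below WT Refed mouse 1. Morc4 had a log2 fold change of 1.03 (SE 0.22) between NAMPT LKO Fasting and WT Fasting, and 0.89 without NAMPT LKO Fasting mouse 5, the lowest of the fits that left out 1 library, which reached 1.20 without WT Fasting mouse 1.

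Ttc39a lies on the plus strand of chromosome 4 (109406623 to 109444745). It was at 6.14, 4.64, 3.65, 5.51 and 6.64 TMM CPM in NAMPT LKO Fasting livers, at 2.57, 2.14 and 2.26 in WT Fasting livers and at 4.00 and 3.50 in WT Refed livers. The WT Fasting libraries were again the lowest, and NAMPT LKO Fasting mouse 3 lay within the WT Refed range. The log2 fold change between NAMPT LKO Fasting and WT Fasting was 1.19 (SE 0.21), and 1.10 without NAMPT LKO Fasting mouse 5, the lowest of those fits, which reached 1.30 without NAMPT LKO Fasting mouse 3.

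Levels of different genes were set side by side only per length, as the deposited RPKM, which divides CPM by exonic length. In WT Fasting livers, Susd4 was the most abundant member at 8.08 ± 1.68 RPKM (SD, n = 3) and Gspt2 the least at 0.0332 ± 0.00424. Susd4 stood at the 69.3rd percentile of genes tested there and Gspt2 at the 0.201st. In NAMPT LKO Fasting livers Fmo2 was the most abundant at 7.49 ± 1.74 RPKM (SD, n = 5), at the 68.4th percentile, and Susd4 was at 3.90 ± 0.642. Mr1, Ttc39a, Steap2, Gpc1 and Morc4 lay between 0.689 and 1.36 RPKM in that group, and Gspt2 and Lrrn4 were at 0.335 ± 0.204 and 0.279 ± 0.167, which overlap.

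**Figure D3:**
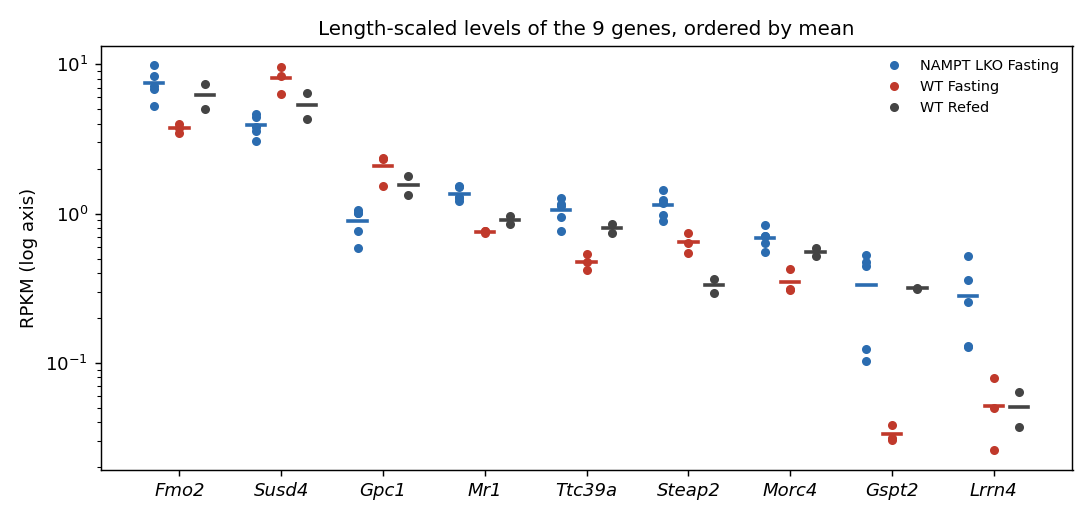
RPKM (log axis) of the 9 genes in each library, ordered by their mean, with group means as horizontal lines. Fmo2 and Susd4 are the most abundant and exchange places between NAMPT LKO Fasting (7.49 and 3.90 RPKM) and WT Fasting (3.75 and 8.08 RPKM), and Gspt2 and Lrrn4 are the least abundant.

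By the labels, the comparison of WT Fasting with WT Refed sets 24 h without food against 22 h without food and 2 h of feeding. Both groups had intact Nampt. By the labels it holds no group that was never fasted, so fasting and refeeding cannot be told apart in it. It shares its 3 WT Fasting libraries with the comparison that chose the genes, so its values are not independent of the choice. Of the 9 genes, 2 were called by edgeR's quasi-likelihood test, against 7.04% of genes tested (2.68% called higher and 4.36% lower in WT Fasting). DESeq2 and edgeR's exact test called the same 2 members, against 12.3% and 8.91% of genes tested. Steap2 was 2.01-fold higher in WT Fasting (log2 fold change 1.01, SE 0.20, adjusted p = 0.0126 from edgeR). Gspt2 was 8.92-fold lower (log2 fold change -3.16, SE 0.71, adjusted p = 0.0237 from edgeR). Gspt2 passed the filter on low counts through NAMPT LKO Fasting and WT Refed libraries and through no WT Fasting library, so its call is given as a description. The Steap2 call was lost without WT Refed mouse 1 (edgeR adjusted p = 0.145) or 2 (0.0723), and the Gspt2 call was lost without any 1 of the 3 WT Fasting or 2 WT Refed libraries (edgeR adjusted p of 0.0641 to 0.131).

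The other 7 genes were not called in this comparison. The log2 fold changes were 0.65 for Susd4 (SE 0.23), -0.67 for Fmo2 (SE 0.25), -0.69 for Ttc39a (SE 0.25) and -0.61 for Morc4 (SE 0.27), each with an unadjusted p under 0.05 as in 22.3% of genes tested, and edgeR adjusted p-values of 0.115 to 0.208. They were 0.47 for Gpc1 (SE 0.26), -0.20 for Mr1 (SE 0.21) and 0.07 for Lrrn4 (SE 0.77). Susd4 was called without WT Fasting mouse 3 (log2 fold change 0.81, edgeR adjusted p = 0.0493). By voomWithQualityWeights, 7 members were called, all but Lrrn4 and Mr1, against 24.8% of genes tested. Steap2 alone was higher in every WT Fasting library than in any WT Refed library, as were 24.5% of genes tested, and Mr1, Fmo2, Gspt2, Morc4 and Ttc39a were lower without overlap, as were 25.1%, so that 49.7% of genes tested did not overlap in this comparison of 3 with 2 libraries.

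The comparison of NAMPT LKO Fasting with WT Refed shares its 5 NAMPT LKO Fasting libraries with the comparison that chose the genes, and differs in both genotype and feeding, which cannot be told apart in it. Of the 9 genes, 3 were called, all higher in NAMPT LKO Fasting, against 11.2% of genes tested (4.65% called higher and 6.58% lower). An unadjusted p under 0.05 was found for 4 members and 26.1% of genes tested. Steap2 was 3.65-fold higher in NAMPT LKO Fasting (log2 fold change 1.87, SE 0.19, adjusted p = 0.000331 from edgeR) and kept its call in every alternative tried. Lrrn4 was 5.70-fold higher (log2 fold change 2.51, SE 0.70, adjusted p = 0.0416 from edgeR). Lrrn4 passed the filter on low counts through NAMPT LKO Fasting libraries alone, the group that was high when the gene was chosen, so its call is given as a description and supports nothing. Mr1 was 1.60-fold higher (log2 fold change 0.68, SE 0.19, adjusted p = 0.0458 from edgeR).

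The calls of Lrrn4 and Mr1 were close to the threshold. Lrrn4 lost its call without NAMPT LKO Fasting mouse 1, 2 or 3 or without either WT Refed mouse (edgeR adjusted p of 0.0696 to 0.285), with library totals in place of TMM (0.0552) and with only these groups in the fit (0.0546). Mr1 lost its call in 9 of the 10 fits that left out a library, all but the one without NAMPT LKO Fasting mouse 5 (edgeR adjusted p of 0.0504 to 0.313). It was also lost with library totals (edgeR adjusted p = 0.0853), with no filter (0.193), with filterByExpr (0.0585) and with only these groups in the fit (0.0750). Gpc1 had a log2 fold change of -0.73 (SE 0.23, edgeR adjusted p = 0.0627). It was called by the exact test, DESeq2 and voomWithQualityWeights, which called 12.9%, 16.8% and 31.8% of genes tested, and also without WT Fasting mouse 3 (edgeR adjusted p = 0.0370). The remaining log2 fold changes were 0.50 for Ttc39a (SE 0.24), 0.43 for Morc4 (SE 0.25), -0.38 for Susd4 (SE 0.20), 0.37 for Fmo2 (SE 0.24) and 0.14 for Gspt2 (SE 0.57), and none was called. Lrrn4, Mr1 and Steap2 were higher without overlap, as were 15.7% of genes tested, and Gpc1 was lower without overlap, as were 17.8%, or 33.5% in both directions.

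**Figure D4:**
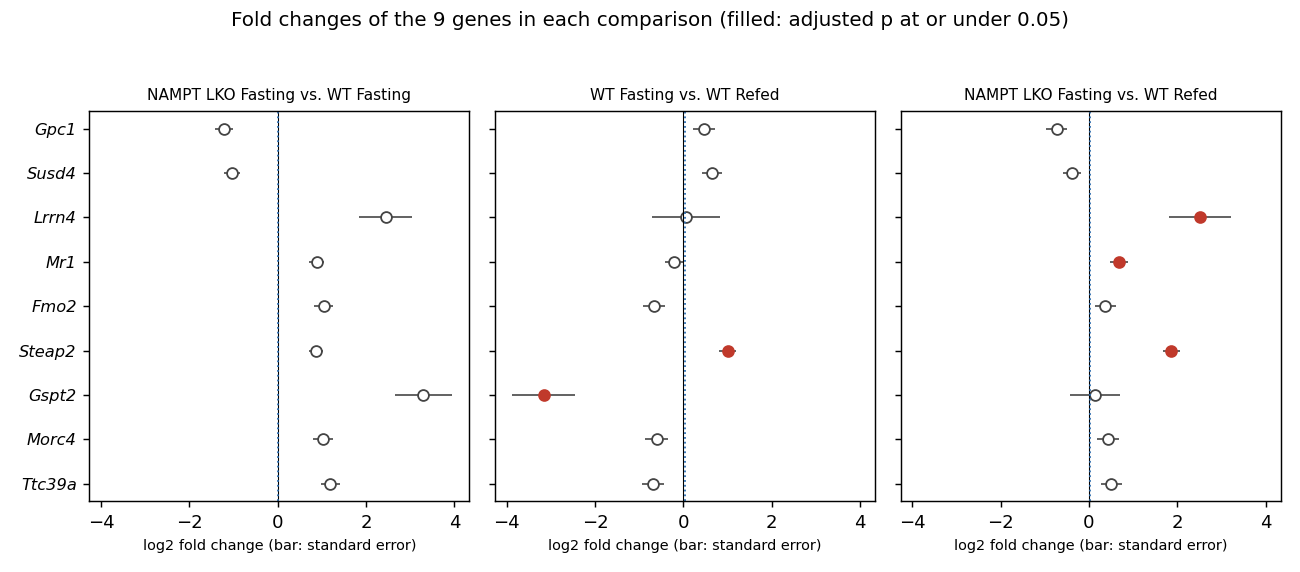
log2 fold changes of the 9 genes in the 3 comparisons, with standard errors as bars, filled points for genes called by edgeR's quasi-likelihood test and a dotted line at the median of all genes tested. Steap2 and Gspt2 are called between WT Fasting and WT Refed, and Lrrn4, Mr1 and Steap2 between NAMPT LKO Fasting and WT Refed, while the first panel shows the contrast that chose the genes.

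Relatives of the 9 genes were counted from lists, and the most abundant gene of a list is the one with the highest mean RPKM. Calls of list genes are those of edgeR's quasi-likelihood test, and the 9 members, which are in these lists, had the further calls by other tools given above. Of 8 glypicans and syndecans tested, the coreceptors that Gpc1 belongs to, none was called by the quasi-likelihood test between NAMPT LKO Fasting and WT Fasting, and Gpc3 was called higher in NAMPT LKO Fasting than in WT Refed (log2 fold change 2.80, SE 0.67). Sdc4 was the most abundant of that list. Of 17 genes that build or trim heparan sulfate, the sugar chain that Gpc1 carries, B3galt6 was lower in WT Fasting than in WT Refed (log2 fold change -0.86, SE 0.21), and B3galt6 and Hs6st1 were lower in NAMPT LKO Fasting than in WT Refed (log2 fold changes -0.84 and -0.51). Hs6st1 was also the most abundant of that list. Of 12 complement regulators tested, with Vtn the most abundant, none, Susd4 included, was called by that test in any of the 3 comparisons. In NAMPT LKO Fasting against WT Fasting the list with Susd4 had a median log2 fold change of 0.14, while Susd4 was at -1.03.

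Of 15 class I-like molecules and loading factors tested, with B2m the most abundant, Calr and Pdia3, chaperones of the endoplasmic reticulum, were lower in both Fasting groups than in WT Refed (log2 fold changes of -1.12 and -1.27 in WT Fasting and -1.10 and -1.19 in NAMPT LKO Fasting). Mr1 was the single member of that list called higher, in NAMPT LKO Fasting against WT Refed. Of 2 LRRN genes tested, Lrrn3 was the more abundant and was at log2 fold changes of 0.28 (SE 0.32) and -0.06 (SE 0.40) in the comparisons of NAMPT LKO Fasting with WT Fasting and of WT Fasting with WT Refed.

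Of 5 flavin-containing monooxygenases tested, Fmo5 was the most abundant and Fmo4 was called higher in NAMPT LKO Fasting than in WT Refed (log2 fold change 1.01, SE 0.27). Of 10 STEAP and metal uptake genes tested, with Tfr2 the most abundant, Steap2 and Tfrc were called between WT Fasting and WT Refed, in opposite directions. Tfrc, the transferrin receptor, was at a log2 fold change of -1.52 (SE 0.22). Between NAMPT LKO Fasting and WT Refed, Steap2 and Slc39a8 were called higher, and Tfrc, Slc11a2 and Slc39a14 lower. Steap3 and Steap4 were not called in any comparison, with log2 fold changes of 0.01 (SE 0.24) and -0.48 (SE 0.33) between NAMPT LKO Fasting and WT Fasting.

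Of 12 translation termination and ribosome rescue genes tested, with Etf1 the most abundant, Gspt2, Abce1, Pelo and Upf1 were called lower in WT Fasting than in WT Refed, with log2 fold changes of -0.63 (Abce1), -0.62 (Pelo) and -0.45 (Upf1) beside -3.16 for Gspt2. Pelo and Upf1 were also lower in NAMPT LKO Fasting than in WT Refed (log2 fold changes -0.95 and -0.50). Neither the 3 MORC genes tested, with Morc3 the most abundant, nor the 3 TTC39 genes tested, with Ttc39c the most abundant, held a gene called by the quasi-likelihood test in any of the 3 comparisons, Morc4 and Ttc39a included. Of 9 genes that supply NADPH, with Aldh1l1 the most abundant, none was called. Of 13 NAD synthesis and salvage genes, with Nnmt the most abundant, Nampt was called lower in NAMPT LKO Fasting against both other groups, and Sirt1 was called higher in both Fasting groups than in WT Refed (log2 fold changes of 0.63 and 0.75).

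Markers of other liver cell types were summed in each library, since some of the 9 genes are known from such cells. Bile duct markers (7 of 7 tested) summed to 51.7, 41.3, 34.0, 47.3 and 54.5 TMM CPM in NAMPT LKO Fasting libraries, to 15.3, 22.7 and 20.3 in WT Fasting and to 23.3 and 20.3 in WT Refed. Every NAMPT LKO Fasting library was above every WT library, as for Mr1, Lrrn4 and Steap2. Spp1, at 19.1 to 37.3 TMM CPM in NAMPT LKO Fasting and 8.55 to 11.6 in WT, made up the largest share of that sum, and Spp1, Krt7 and Krt19 of this list are themselves among the genes up to rank 28. Of the 7 markers, all had a higher mean in NAMPT LKO Fasting than in WT Fasting, none was called there by the quasi-likelihood test, and Spp1, Krt7 and Krt19 were called there by edgeR's exact test and by DESeq2, as the 9 members were. Epcam and Spp1 were called higher in NAMPT LKO Fasting than in WT Refed by the quasi-likelihood test, as were 4.65% of genes tested. The part of these cells in the levels of the 9 genes was not tested.

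Mesothelium markers (8 of 9 tested, Lrrn4 among them) summed to 42.5 to 54.5 TMM CPM in NAMPT LKO Fasting libraries, 34.0 to 37.4 in WT Fasting and 29.2 in both WT Refed libraries. Most of this sum is Slc39a8, which hepatocytes also express. Without Slc39a8, Lrrn4 and Krt19, a trimming made after the values were seen, 5 of the 6 remaining markers were in the gene table and summed to 11.1, 7.08, 9.50, 3.75 and 3.53 TMM CPM in NAMPT LKO Fasting, to 3.21, 2.23 and 3.69 in WT Fasting and to 1.70 and 0.932 in WT Refed. NAMPT LKO Fasting mice 1, 2 and 3, the highest in this sum, were also the 3 highest in Lrrn4, and mouse 5 overlapped WT Fasting in the sum but not in Lrrn4. Upk3b, Upk1b, Gpm6a, Lrrn4 and Slc39a8 of the list were called higher in NAMPT LKO Fasting than in WT Refed. The quasi-likelihood test called 4.65% of genes tested higher there. Upk3b, Upk1b and Lrrn4 passed the filter on low counts through NAMPT LKO Fasting libraries alone, so their calls are given as a description. The part of mesothelium in the Lrrn4 values was not tested.

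**Figure D5:**
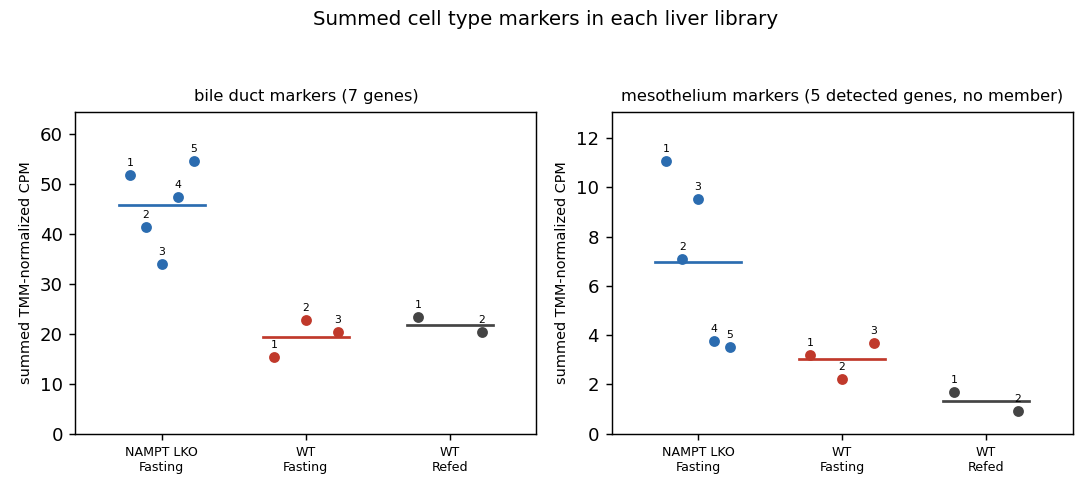
Summed TMM-normalized CPM (linear axis from 0) of 7 bile duct markers and of 5 mesothelium markers in each library, with points numbered by mouse and lines at group means. Bile duct markers are at 34.0 to 54.5 in NAMPT LKO Fasting and at most 23.3 in WT libraries, and mesothelium markers are highest in NAMPT LKO Fasting mice 1, 2 and 3.

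The sums of other lists overlapped between NAMPT LKO Fasting and WT Fasting, except for pancreas. Stellate cell and fibroblast markers (8 of 8 tested) summed to 230 to 306 TMM CPM in NAMPT LKO Fasting and 185 to 238 in WT Fasting. Most of this sum is Dcn, and all 8 had a positive log2 fold change between those groups. Col1a1, a collagen chain, was at means of 4.99 and 1.44 TMM CPM (log2 fold change 1.79), was called there by DESeq2 and not by the quasi-likelihood test, and was called higher in NAMPT LKO Fasting than in WT Refed by the latter (log2 fold change 2.47). Sums of liver endothelium markers (7 of 7 tested) were 223 to 288 and 238 to 257 TMM CPM in NAMPT LKO Fasting and WT Fasting, and those of Kupffer cell and macrophage markers (7 of 7 tested) were 157 to 353 and 229 to 456. Markers of T, NK and innate-like lymphocytes, which include the cells that read Mr1, summed to 42.6 to 147 and 58.7 to 141, and 3 of 9 were tested. B cell, blood and adipose markers overlapped between those groups as well. Pancreas markers were lower in every NAMPT LKO Fasting library, at 3.66 to 5.32 against 6.45 to 7.09 TMM CPM in WT libraries, and 1 of 7, Cela1, was tested. The part of these cells was not tested.

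For each member, the genes whose log2 level was most like it over the 10 libraries were found among about 12277 genes whose mean CPM was 1 or more, as a description in which the points share libraries, depth and the choice of the members. Mr1 was most like Bicc1 (r = 0.947) and Pkhd1 (0.929), and Ttc39a was most like Ikbip (0.919) and Pkhd1 (0.896). Lrrn4 was most like Cdon (0.928) and Thbs1 (0.926), and Steap2 was most like Gpm6a (0.963), a gene of the mesothelium list, and Prcp (0.959). Fmo2 went with Sorbs2 (0.963) and Slc30a7 (0.917), and Morc4 with Rps6ka3 (0.943) and Zmym2 (0.922). Gpc1 went with Lsm2 (0.927) and Susd4 (0.904), Susd4 with Pmm1 (0.907) and Gpc1, and Gspt2 with Rhoj (0.923) and Ddx52 (0.833).

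By position, 4 of the 9 genes, Gpc1, Mr1, Fmo2 and Susd4, lie on chromosome 1, which holds 6.06% of the genes tested, and 2, Gspt2 and Morc4, lie on the X chromosome, which holds 3.23%. None lies on chromosome 12, which carries Nampt. Of the 4 genes on chromosome 1, Gpc1 and Susd4 were lower and Mr1 and Fmo2 higher in NAMPT LKO Fasting than in WT Fasting. The part of position in these differences was not tested.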

How the data were processed

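The authors selected polyadenylated RNA, and the submitters' processing notes name STAR 2.5.1a, featureCounts 1.4.6-p5 and GRCm38, whereas the study's methods give other versions of these tools. The authors deposited for each Ensembl gene the count of uniquely aligned unambiguous reads, the CPM (count scaled by the library total) and the RPKM (CPM divided by exonic length in kilobases). Whether counting used strand is not given in the sources used here. Total counts ranged from 30603080 to 43434139 per library, and no replicates held identical values.

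Everything after the counts was computed here. Symbols came from GENCODE M21 (40254 of 41388 genes). Genes above 1 CPM in at least 1 library, ribosomal RNA genes excluded, were kept. The main test was the quasi-likelihood test of edgeR 4.0.16, run in R 4.3.3 on counts with TMM factors. A single fit held the 10 libraries and a term for each group, and p-values were adjusted over 13444 genes by Benjamini-Hochberg. A gene is called where its adjusted p does not exceed 0.05. The tests were tested on simulated data. Alternatives were edgeR's exact test, DESeq2 1.42.0, voomWithQualityWeights of limma 3.58.1, other size factors and filters, fits of the compared groups alone, a block for replicate number, and fits that leave out a library in turn. P-values weigh a difference of group means against the spread between libraries within groups, estimated over all groups in the fit.

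The 9 genes and all lists were chosen with earlier results of these data known. Named genes are the members, Nampt, non-members among the 10 lowest p and the gene after the last member, the 2 genes most correlated with each member on log2(TMM CPM + 1), and, of each family or pathway list, called genes and the most abundant one. Cell type lists are given by their sums, and not all of their called genes are named. Other genes named were chosen after their values were seen. Promoter windows came from RefSeq (GRCm38.p6).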

Additional observations from a re-analysis of the deposited data

How the results depend on the processing

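Between NAMPT LKO Fasting and WT Fasting, the quasi-likelihood test called 1 gene, 2 with library totals alone, 3 with filterByExpr, 17 with no filter and 24 each with DESeq2 and edgeR's exact test. Of the 9 members it called 0, also in every fit that left out a library, 4 with no filter (Gpc1, Susd4, Fmo2 and Gspt2) and 9 with DESeq2 or the exact test. All 9 kept their direction in every alternative. Nothing is read from this, because the genes were chosen on this contrast and their groups do not overlap in it. Same-numbered mice of these groups correlated in their deviations by 0.112, 0.0661 and 0.141, and each sample correlated best with its own number. Mice with different numbers correlated by -0.198 to -0.00616. The labels do not give the numbers as pairs, and they were not taken as pairs, a choice that these values do not settle. With libraries 1 to 3 alone, edgeR's quasi-likelihood test called 0 genes with the replicate block and 0 without it, and Nampt was at a log2 fold change of -2.78 (edgeR adjusted p = 0.106) with the block.

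Between WT Fasting and WT Refed, 946 genes were called, 1646 with DESeq2, 3331 with voomWithQualityWeights and 1627 with only those groups in the fit. Between NAMPT LKO Fasting and WT Refed, 1510 were called, and 4281 with voomWithQualityWeights. Leaving out 1 library gave 1 to 2, 106 to 2231 and 207 to 2835 called genes in the 3 comparisons in this order, with the highest counts of the last 2 without NAMPT LKO Fasting mouse 5 and the lowest without WT Refed mouse 2. Between WT Fasting and WT Refed, 511 genes were called without WT Fasting mouse 1, 466 without WT Fasting mouse 2 and 189 without WT Refed mouse 1. Between NAMPT LKO Fasting and WT Refed, 960 were called without NAMPT LKO Fasting mouse 2 and 322 without WT Refed mouse 1. Members called ranged from 0 to 2 between WT Fasting and WT Refed and from 1 to 3 between NAMPT LKO Fasting and WT Refed when 1 library was left out. Direction reversed for genes with no call in that comparison. Lrrn4 between WT Fasting and WT Refed ranged from -0.38 (without WT Fasting mouse 2) to 0.49 when 1 library was left out, and was -0.27 without WT Refed mouse 1. Nampt there ranged from -0.10 (without WT Fasting mouse 3) to 0.56. Gspt2 between NAMPT LKO Fasting and WT Refed ranged from -0.080 (without NAMPT LKO Fasting mouse 4) to 0.38, and was -0.00074 without mouse 1. The cause was not tested. The scalings shifted the median of all genes by under 0.1 on the log2 scale. Depth limits Gspt2 and Lrrn4, with at most 10 reads in any WT Fasting library.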
